A study of Mus musculus with 2 samples.

Results

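The cells described here are alveolar type 2 (AT2) cells of the adult mouse lung that carry several transcripts of Ndnf and Sparc. They were chosen by their own readout: a barcode was taken when it held at least 500 Sftpc UMIs per 10000 and at least 3 raw UMIs of Ndnf and Sparc together. It also had to hold fewer than 1000 UMIs per 10000 of Scgb1a1, fewer than 10 of Foxj1, Ccdc153 and Tmem212 summed, and fewer than 5 of Lrg1. The last gates allowed fewer than 5 per 10000 of Areg and Sprr1a summed, fewer than 3 per 10000 of Bex2, and fewer than 3 raw UMIs of Mki67 and Top2a summed. A UMI is a molecular tag that counts 1 captured RNA molecule. The rule found 504 of 6983 barcodes, 294 of 3298 in the Control library and 210 of 3685 in the NAPH library. They are called members below, and the 397 Control and 307 NAPH cells that passed every other gate with fewer than 3 Ndnf and Sparc UMIs are called comparison cells.

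Both libraries came from C57BL/6 mouse lung cells sorted by flow cytometry for Epcam, a surface adhesion protein of epithelia, and were prepared on a droplet platform that tags single cells at the 3′ end of transcripts. The Control library carries no stated treatment, and the NAPH library followed an airway injury that the labels give only as NAPH. The labels say that the mice were adult, and leave out sex, dose, timing and how many animals were pooled or used. Each group was 1 library, so differences could not be set against the spread between replicates, no test was made, and every range in parentheses is an exact 95% interval that covers counting error only. The libraries shared 14 barcode sequences, of which 3 belonged to a member in either library and 0 to members in both.

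AT2 cells line the alveolus, make and recycle pulmonary surfactant in lamellar bodies, and act as progenitors of the flat alveolar type 1 (AT1) cells. On the way from AT2 to AT1, cells pass through transitional states known for keratins such as Krt8 and Krt19, for galectin 3 and for loss of surfactant lipid synthesis. Sparc encodes osteonectin, a secreted matricellular protein that binds collagen and calcium, and Ndnf encodes a secreted fibronectin type III protein described as a neurotrophic factor.

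The label was checked against its markers. Transcripts of the AT2 genes were abundant in the members. Sftpc stood at 228821 CPM (UMIs of the gene divided by all UMIs of the summed members, scaled to 1000000) in Control and at 204397 in NAPH. The rule required Sftpc, so its level is no check of the label. Lamp3, a lamellar body membrane protein, stood at 987 CPM in Control members and 1129 in comparison cells, and at 938 and 1088 in NAPH. Abca3, the lamellar body lipid transporter, stood at 449 CPM in Control members and 417 in NAPH members. The other genes that had been named beside Ndnf and Sparc separated the cells less. Scx, a tendon transcription factor, stood at 39.9 against 27.0 CPM in Control, a ratio of 1.48 (1.09 to 2.01), and at 40.2 against 27.4 CPM in NAPH, a ratio of 1.47 (1.05 to 2.05). Rgcc, a regulator of the cell cycle, stood at 412 against 385 CPM in Control, 1.07 times (0.982 to 1.17), and at 420.5 against 382 CPM in NAPH, 1.10 times (1.003 to 1.21). The AT2 part of the label fitted the counts of Lamp3 and Abca3, which the rule did not use. Scx stayed under 1.5 times and Rgcc near the comparison level. Epcam, the sort marker, was present, at 1.31 and 1.37 times the comparison level.

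The gate cut through a continuous distribution. Among the 691 Control cells that passed the other gates, 133 held 0 Ndnf and Sparc UMIs, 135 held 1, 129 held 2, 106 held 3, 69 held 4 and 44 held 5. In the 517 such NAPH cells the numbers were 99, 115, 93, 70, 47 and 28. There was no gap at 3 UMIs in either library. The median member held 4 Ndnf and Sparc UMIs in both libraries, and the highest held 18 in Control and 33 in NAPH. By these values, which the rule used, Sparc stood at 467 CPM in Control members and 115 in comparison cells, and at 438 and 97.7 in NAPH. Ndnf stood at 99.8 against 18.3 CPM in Control and at 111 against 19.9 in NAPH. Nearly all members held Sparc: 160 of 294 Control and 89 of 210 NAPH members held Sparc alone, 132 and 121 held both, and 2 and 0 held Ndnf alone. Sparc lies at chr11:55394500-55423183 (minus strand) and Ndnf at chr6:65671590-65712326 (plus strand) in GRCm38.

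**Figure D1:**
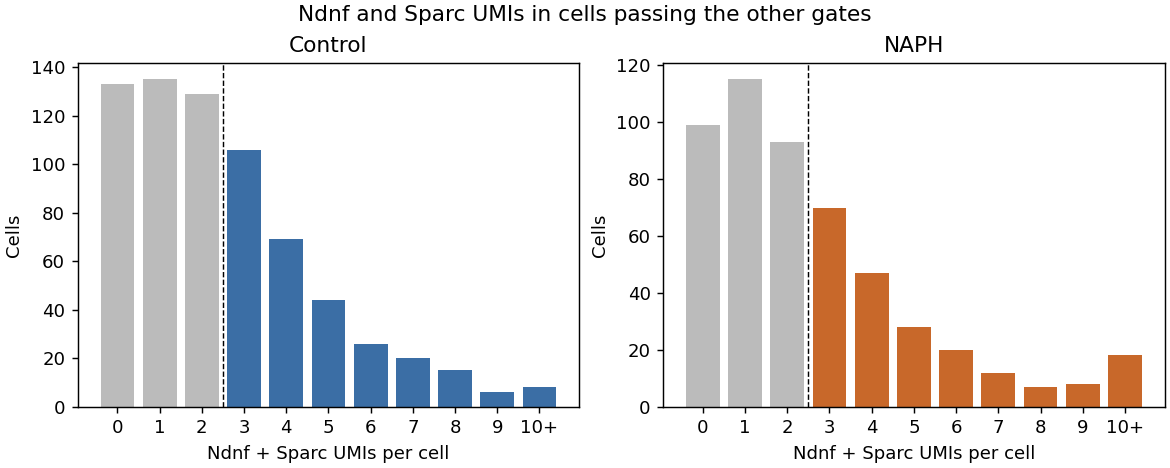
Number of cells (y axis) by Ndnf and Sparc UMIs per cell (x axis) among cells passing the other gates, 691 in Control and 517 in NAPH, with members coloured and comparison cells in grey. Counts go from 129 cells with 2 UMIs to 106 with 3 in Control and from 93 to 70 in NAPH, with no gap at the dashed gate.

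Depth moved with the gate. Median depth was 8141 UMIs in Control members against 7343 in comparison cells, and 9334 against 8373 in NAPH. Every cell was then thinned to 3500 UMIs. Of the members, 89.8% in Control and 87.6% in NAPH held at least 1 Ndnf or Sparc UMI, against 34.5% and 37.5% of comparison cells. At that depth 31.6% of Control and 28.1% of NAPH members held at least 3. The rule had split the cells on these same UMIs, so these shares describe the split and are no check of it. Median mitochondrial shares were 3.09% and 2.90% in members and 3.55% and 3.32% in comparison cells.

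Ndnf was found more often in cells with Sparc than in cells without it at equal depth. This was measured in all gate-passing cells after thinning, so that the gate on the sum did not enter. Ndnf was detected in 18.9% (15.02 to 23.3) of Control cells with a Sparc UMI and 11.04% (7.86 to 14.96) of those without. In NAPH it was detected in 17.0% (12.8 to 22.1) and 11.7% (8.01 to 16.4), intervals that overlap. S100a6, a calcium-binding protein, was detected in 28.8% (24.2 to 33.7) of Control cells with Sparc and 16.9% (13.0 to 21.4) of those without, and in 28.1% (22.9 to 33.9) and 13.4% (9.38 to 18.2) in NAPH. Scx gave 10.4% and 11.3% in Control and 11.9% and 10.5% in NAPH, and Rgcc 67.4% and 59.2% in Control and 63.0% and 63.6% in NAPH. Scx was found about as often without Sparc as with it once depth was equal.

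By raw UMIs, members made up about the same share of the gate-passing cells in both libraries. It was 42.5% (38.8 to 46.3) in Control and 40.6% (36.4 to 45.0) in NAPH, a ratio of 0.955 (0.796 to 1.14). Gate-passing cells were deeper in NAPH, with a median of 8734 UMIs against 7652. With at least 3 UMIs per 10000 as the gate, the shares were 45.2% and 37.3%, a ratio of 0.827. At 3500 UMIs per cell the ratio was 0.848. Both lie lower than the main ratio and within its interval. Of all barcodes with at least 500 Sftpc UMIs per 10000, 1852 in Control and 2601 in NAPH, members were 15.9% (14.2 to 17.6) and 8.07% (7.06 to 9.19), a ratio of 0.509 (0.424 to 0.609). The gates on other genes enter that ratio. Without them, 33.3% (31.2 to 35.5) of Control and 33.7% (31.9 to 35.5) of NAPH Sftpc-rich barcodes held at least 3 Ndnf and Sparc UMIs, a ratio of 1.01 (0.911 to 1.12). Each cell set aside was counted at a single gate, with the Bex2 gate last and the Lrg1 gate just before it. Cells counted at the Lrg1 gate numbered 172 in Control and 1714 in NAPH. Those that failed the Bex2 gate and no other numbered 922 and 176. Cells that failed both the Lrg1 and Bex2 gates are thus not among the latter. Sftpc-rich cells were deeper in NAPH, with a median of 9627 UMIs against 7727, and at 3500 UMIs per cell 9.07% of Control and 7.07% of NAPH ones held at least 3. The part of the gates and of depth in the lower NAPH share was not tested.

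Members differed from comparison cells in a small set of genes. Of the named genes, Emp1, Lockd, S100a6 and Plb1 ranked highest by the smaller of the library ratios, and 5 of the 15 genes named as higher (S100a6, Lgals3, Anxa1, Krt19 and Krt8) belong to the transitional epithelial list. A gene was called higher or lower when its CPM ratio passed 1.5 in the same direction in both libraries. It entered with at least 30 UMIs in the members, or expected there from the comparison level, in each library. Of 5564 genes, 63 were higher (1.13%) and 11 lower (0.198%). Besides the 63, 127 were at least 1.5 times higher in Control alone and 272 in NAPH alone. Among all 5564, 19 passed 1.5 in opposite directions in the libraries. Scaling by median of ratios in place of total UMIs gave 45 higher and 26 lower. The median gene stood at a log2 ratio of 0.05 in Control and 0.10 in NAPH. Since members were picked from the same cells whose genes are compared, these counts describe the split and are no test of it.

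**Figure D2:**
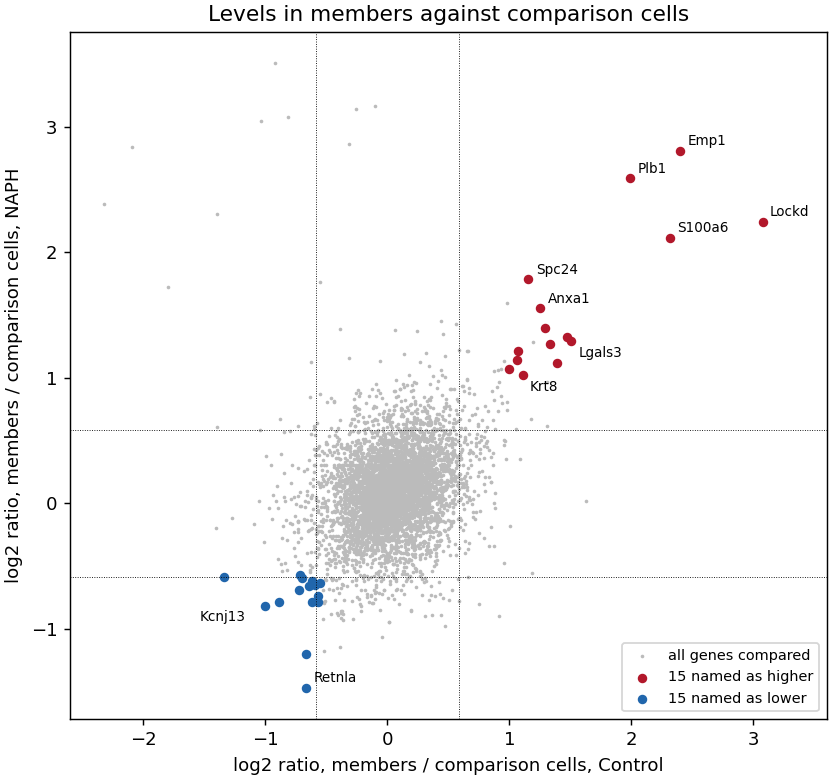
Each point is 1 of 5564 genes, with the log2 ratio of members over comparison cells in Control on the x axis and in NAPH on the y axis; dotted lines mark a 1.5-fold difference. Red points, the 15 named as higher, sit at about 2-fold or more in both libraries, with Emp1 at 5.28 and 7.01 times, while the blue points, named as lower, lie at the dotted lines or beyond, with Retnla and Mysm1 farthest out in NAPH and Ptprg and Kcnj13 in Control.

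S100a6 had both a high ratio and many UMIs. It stood at 561.5 CPM in Control members and 113 in comparison cells, a ratio of 4.99 (4.42 to 5.64), and at 357 and 82.1 CPM in NAPH, a ratio of 4.34 (3.72 to 5.09). It was not shared evenly: 138 of 294 Control members and 95 of 210 NAPH members held a UMI of it, and the tenth of members with the most held 74.3% and 73.1% of its UMIs. Emp1, an epithelial membrane protein of the claudin-like superfamily, stood at 23.2 against 4.40 CPM in Control, 5.28 times (2.86 to 10.5), and at 16.5 against 2.35 CPM in NAPH, 7.01 times (2.91 to 20.4). Plb1, a membrane phospholipase, stood at 13.4 against 3.38 CPM in Control, 3.97 times (1.91 to 9.04), and at 18.9 against 3.13 CPM in NAPH, 6.03 times (2.78 to 14.9). Both Emp1 and Plb1 were rare as well as enriched: Emp1 UMIs occurred in 12.6% and 10.95% of members against 3.02% and 1.95% of comparison cells.

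By the smaller of the library ratios these 3 genes ranked highest among the named protein-coding genes, and the 250 bases before a listed start site of each are shown from RefSeq (GRCm38.p6) as context for genes that were high together. Capitals mark TGANTCA, the letters of an AP-1 type motif, and GGAATG, those of a TEAD type motif, searched on both strands, and the motifs do not overlap.
Emp1, chr6:135362681-135362930, plus strand: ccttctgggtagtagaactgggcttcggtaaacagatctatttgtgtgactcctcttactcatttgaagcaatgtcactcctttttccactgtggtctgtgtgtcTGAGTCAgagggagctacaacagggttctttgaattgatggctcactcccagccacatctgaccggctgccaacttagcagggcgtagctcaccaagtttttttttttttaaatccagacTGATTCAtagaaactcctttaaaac
S100a6, chr3:90612644-90612893, plus strand: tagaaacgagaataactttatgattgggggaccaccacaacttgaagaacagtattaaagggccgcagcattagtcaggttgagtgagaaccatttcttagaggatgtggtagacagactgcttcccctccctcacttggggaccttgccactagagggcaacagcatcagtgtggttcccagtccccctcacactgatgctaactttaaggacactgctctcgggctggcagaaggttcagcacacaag
Plb1, chr5:32238834-32239083, plus strand: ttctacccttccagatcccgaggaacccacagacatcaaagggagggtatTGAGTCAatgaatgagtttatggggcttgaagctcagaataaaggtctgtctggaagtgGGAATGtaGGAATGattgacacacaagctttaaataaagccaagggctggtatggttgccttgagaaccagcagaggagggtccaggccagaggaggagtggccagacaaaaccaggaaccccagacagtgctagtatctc
The Emp1 window held TGANTCA 2 times, the Plb1 window held it 1 time with GGAATG 2 times, and the S100a6 window held neither. A second Emp1 window held neither motif, and a second Plb1 window held GGAATG 1 time and no TGANTCA. Over all 32851 windows of the same length, 6.75% held TGANTCA and 12.6% held GGAATG. Windows were found for 10 of the 15 genes named as higher, with 15 windows in all, of which 3 held TGANTCA and 4 held GGAATG. A match of letters is a description only.

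The transitional list holds 4 keratins, intermediate filament proteins of epithelia. Krt8 stood at 301 CPM in Control members against 139.6 in comparison cells, 2.16 times (1.91 to 2.44), and at 362 against 178 CPM in NAPH, 2.03 times (1.81 to 2.29). Krt19 was 2.09 times (1.66 to 2.65) the comparison level in Control and 2.21 times (1.74 to 2.81) in NAPH. Krt7 was 1.91 and 2.10 times and Krt18, the partner of Krt8 in its filaments, 1.89 and 1.96 times. These 4 keratins were thus near 2-fold higher in both libraries.

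Lgals3, the carbohydrate-binding galectin 3, stood at 289.9 CPM in Control members against 102 in comparison cells, 2.84 times (2.48 to 3.26), and at 299 against 122 CPM in NAPH, 2.46 times (2.14 to 2.82). Anxa1, a calcium-dependent phospholipid-binding protein, stood at 126 against 52.7 CPM in Control, 2.39 times (1.96 to 2.91), and at 225 against 76.6 CPM in NAPH, 2.94 times (2.49 to 3.50). Sfn, the epithelial stratifin protein, was 1.84 and 2.08 times the comparison level. Hbegf, a ligand of the EGF receptor, was 2.26 and 1.59 times, and Itgb6, an integrin subunit that activates latent TGF-beta, 1.52 (0.799 to 2.94) and 3.09 times. Tnip3, an inhibitor of NF-kappa B signalling, was 3.13 (1.05 to 11.2) and 2.06 (0.679 to 6.91) times. The intervals of Itgb6 in Control and Tnip3 in NAPH include 1.

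Of 14 transitional epithelial genes with at least 10 UMIs, 11 were higher in both libraries and 0 lower, against 2.16% higher and 0.802% lower among the 8723 genes at that filter. The gene lists were written with earlier results of these data known, so their counts describe the split and are no test of it. The list medians were 1.001 and 1.05 on the log2 scale, 0.96 and 0.95 above the median of all genes. The genes that did not pass were Anxa2 (1.46 and 1.504 times), Cldn18 (1.11 and 1.18 times) and Cdkn1a (0.844 and 1.40 times), the last an inhibitor of cyclin-dependent kinases. Against all other Sftpc-rich cells, 1558 in Control and 2391 in NAPH, 6 of the 14 were higher, with medians of 0.94 and 0.60, and the smaller Krt8 difference was 0.43 on the log2 scale, under 1.5-fold. A median Control member held 23.1 UMIs of this list per 10000 (interquartile range 16.02 to 36.8) and a median comparison cell 15.8, and in NAPH these were 24.2 (16.5 to 37.2) and 16.1. The lower quartile of members thus lay near the comparison median, so the middle of the distribution was higher as well as its tail.

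Areg and Sprr1a, which the rule allows at low levels, were also more frequent in members. At least 1 of their UMIs occurred in 24.8% of Control and 45.7% of NAPH members, against 12.6% and 26.1% of comparison cells. Among cells with 0 UMIs of both, a split chosen after seeing the data with 221 and 114 members against 347 and 227 comparison cells, 7 of 12 list genes with enough UMIs were higher in both libraries, with medians of 0.70 and 0.66, and 20 of 3591 genes were higher in place of 63. In those cells S100a6 was still 3.41 (2.92 to 3.99) and 3.69 (3.02 to 4.53) times and Krt8 1.61 (1.39 to 1.87) and 1.64 (1.38 to 1.95) times the comparison level. Thbs1, a secreted matricellular glycoprotein, went from 1.997 and 2.10 times in all cells to 1.65 and 0.96 times. Among list genes that no longer passed in NAPH, Sfn was 1.06 times (0.762 to 1.46) and Hbegf 1.41 times (0.573 to 3.42) the comparison level. The part of Areg and Sprr1a positive cells in the other differences was not tested.

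Levels of these genes were higher where Ndnf and Sparc UMIs were more numerous, except that S100a6 in Control was lower with 1 to 2 than with 0. In Control, S100a6 stood at 142 CPM in cells with 0 Ndnf and Sparc UMIs, 99.0 with 1 to 2, 304 with 3 to 5 and 1213 with 6 or more. In NAPH the levels were 71.3, 86.6, 211 and 633 CPM. Krt8 went from 116 to 150.5, 267 and 388 CPM in Control, and from 144 to 192, 281 and 516 CPM in NAPH. Lgals3 went from 83.2 to 111, 215 and 480 CPM in Control and from 92.4 to 134, 228 and 432 CPM in NAPH. For these 3 genes the highest level was in the cells with the most Ndnf and Sparc UMIs, which were also the deeper cells.

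Around the threshold the step was smaller than across all cells. In Control cells with exactly 2 Ndnf and Sparc UMIs, just outside, S100a6 stood at 129 CPM and Krt8 at 136, and with exactly 3, just inside, at 251 and 209.8 CPM. In NAPH the values just outside were 96.1 and 209 CPM, and just inside 202 and 257 CPM. Krt19 stood at 47.7 CPM outside and 42.0 inside in Control, and at 64.5 and 63.1 in NAPH, so it did not step up at the threshold.

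Members that held Ndnf stood apart from those that held Sparc alone. S100a6 stood at 879 CPM (826 to 936) in the 134 Control members with Ndnf and 289 (261 to 319) in the 160 without, and at 437 (399.8 to 476) in 121 and 248 (217 to 284) in 89 NAPH members. Krt8 stood at 388 against 227 CPM in Control and 416 against 289 CPM in NAPH. Krt19 stood at 116 against 55.2 CPM in Control and at 113 against 72.9 CPM in NAPH. Fabp5, the fatty acid-binding protein that carries lipid in AT2 cells, went the other way, at 596 against 888.5 CPM in Control and 1081 against 1461 CPM in NAPH. Members with both genes also held more UMIs of the pair per cell. They were 44.9% of Control members with 52.8% of the pair's UMIs in members, and 57.6% with 66.9% in NAPH. The part of that number in these differences was not tested.

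**Figure D3:**
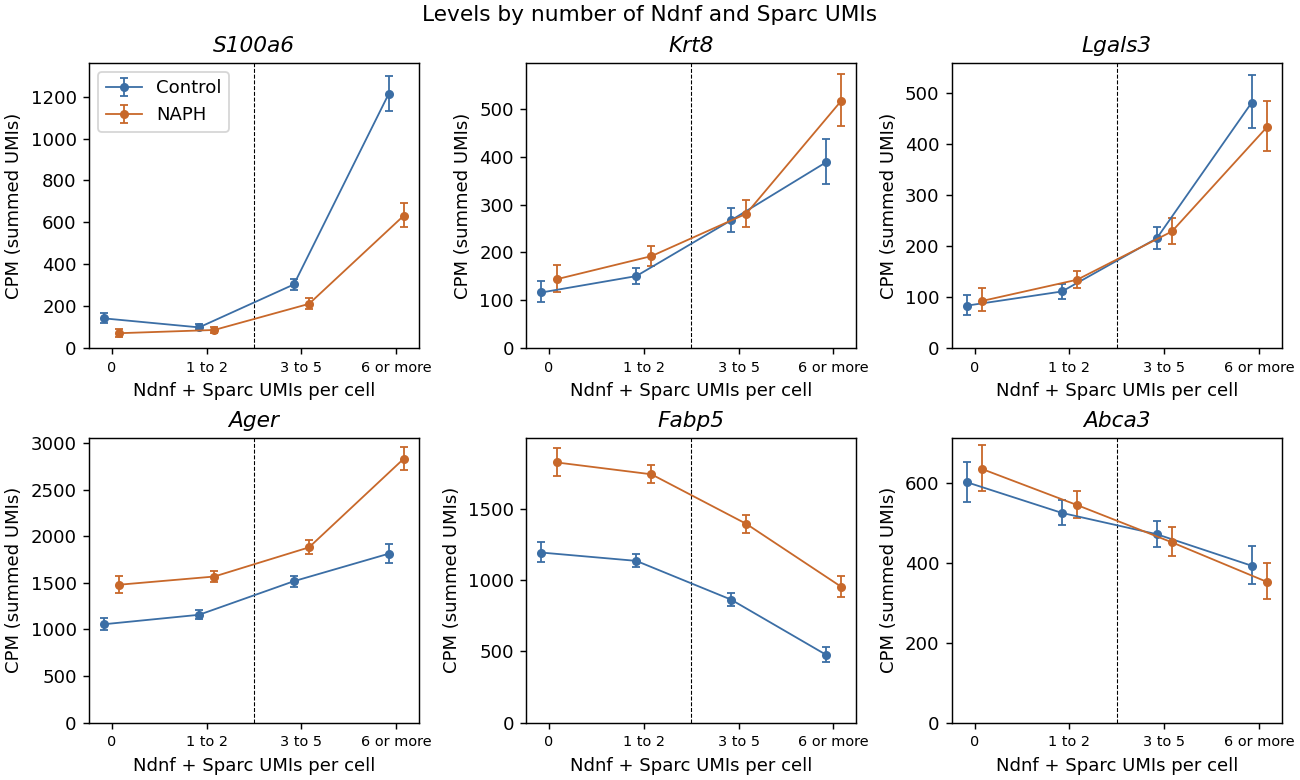
Level of 6 genes in CPM of summed UMIs (y axes) against Ndnf and Sparc UMIs per cell (x axes) in Control and NAPH, with exact Poisson 95% intervals as bars; the dashed line is the gate. S100a6, Krt8, Lgals3 and Ager are highest in the last class, S100a6 at 1213 and 633 CPM, while Fabp5 and Abca3 are lowest there, Abca3 at 392 and 352 CPM.

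Of 6 AT1 markers with enough UMIs, 2 passed 1.5 in both libraries, against 2.16% of all genes, and all 6 lay above 1. Ager, the AT1 receptor for advanced glycation end products, stood at 1601 CPM in Control members against 1125 in comparison cells, 1.42 times (1.36 to 1.49), and at 2208 against 1541 CPM in NAPH, 1.43 times (1.37 to 1.495). Aqp5, the water channel of AT1 cells, was 1.31 (1.21 to 1.42) and 1.35 (1.25 to 1.46) times the comparison level. Neither Ager nor Aqp5 reached 1.5. The 2 that did were Cav1 at 3.41 and 5.94 times and Akap5 at 1.75 (0.763 to 4.17) and 3.80 times. Cav1 encodes caveolin 1, the coat protein of caveolae. Hopx, Pdpn, Rtkn2, Spock2 and Igfbp2 fell under the filter: Hopx had 8 and 31 UMIs in the members and Pdpn 1 and 17.

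Most AT2 and fatty acid synthesis genes lay slightly below the comparison level, and nearly all missed 1.5. Of 9 AT2 markers 0 passed in either direction and 7 lay below 1 in both libraries, with medians of -0.19 and -0.21, which were -0.23 and -0.32 against the median of all genes. Abca3 was 0.818 (0.757 to 0.884) and 0.730 (0.671 to 0.795) times the comparison level, and Lyz2, the lysozyme of AT2 cells and macrophages, 0.801 and 0.735 times. Sftpc itself, which the rule used, was 0.962 and 0.913 times. Fabp5 stood at 754 CPM in Control members against 1153 in comparison cells, 0.654 times (0.617 to 0.692), and at 1242 against 1766 CPM in NAPH, 0.703 times (0.670 to 0.739). Among 14 surfactant and lamellar body genes 0 passed, 8 lay below 1 and 3 above 1 in both libraries, and Ctsh, the protease that processes surfactant protein precursors, went against the list at 1.51 and 1.46 times.

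All 12 fatty acid synthesis genes used lay below 1 in both libraries, although 1 alone passed 1.5 (0.802% of all genes did), Gpam, a glycerolipid synthesis enzyme, with 4 and 10 member UMIs. Fasn, fatty acid synthase, was 0.715 (0.658 to 0.777) and 0.760 (0.705 to 0.818) times the comparison level. Scd1, the desaturase that makes monounsaturated fatty acids, was 0.740 (0.713 to 0.768) and 0.751 (0.734 to 0.768) times. The list medians were -0.28 in both libraries. Cholesterol synthesis genes had a median of -0.38 in Control and -0.01 in NAPH, and 0 of 19 passed, with 11 below 1 in both libraries. Sqle, squalene epoxidase, was 0.413 (0.273 to 0.612) times in Control and 0.921 (0.700 to 1.21) in NAPH. Whether the cholesterol list differed between the libraries was not tested.

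The genes named as lower had smaller differences than those named as higher, and 0 of them reached 2-fold in both libraries. Kcnj13, an inward rectifier potassium channel, was 0.499 (0.346 to 0.710) and 0.567 (0.405 to 0.787) times the comparison level. Cst8, a cystatin, was 0.542 (0.426 to 0.686) and 0.580 (0.398 to 0.835) times. Chchd7, Mysm1, Klc1, Scamp1, Kdm7a, Cth, Ptprk and Ptprg lay between 0.395 and 0.665 times. Retnla, a secreted resistin-like molecule, was 0.631 and 0.362 times, but 1103 of its 2963 UMIs in NAPH comparison cells came from 1 cell. Vpreb3, Ppp1r1b, Stx19 and Ly6c2 completed the 15 without reaching 1.5 in both libraries. Among the genes named as lower, the intervals of Klc1 and Kdm7a include 1 in both libraries. So do that of Cth in Control and those of Ptprg and Ppp1r1b in NAPH.

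Some secreted and matrix genes were higher in the members. The list counts that follow stand against 2.16% higher and 0.802% lower among all genes at the list filter. Of 11 matricellular and secreted signal genes, 4 were higher and 0 lower: Cyr61 (2.41 and 1.99 times), a CCN family protein, Sema3c (1.74 and 1.61 times), Fstl3 (2.26 and 1.70 times) and Pdgfb (1.81 and 3.22 times). Of 21 extracellular matrix genes, 3 were higher and 0 lower, among them Thbs1 and Fbln5, an elastic fibre protein, the latter at 1.74 and 3.05 times. The basement membrane collagens Col4a1 and Col4a2, which Sparc binds, were 1.11 and 1.33 times and 0.958 and 1.23 times. Few UMIs lay behind Sema3c, Fstl3, Pdgfb and Fbln5, and their Control intervals all include 1. Of 6 YAP target genes, 3 were higher in both, F3, Cyr61 and Ajuba, and Amotl2 was 0.967 and 0.933 times. Of 17 TGF-beta and BMP genes, 1 was higher, Tgfb3 at 1.58 and 2.32 times, and of 10 Wnt target genes 0 were higher and 1 lower, Wnt7b, with 7 and 10 member UMIs. Axin2, a common readout of Wnt signalling, was 0.772 (0.448 to 1.31) and 1.09 (0.508 to 2.32) times. Of 2 tendon factor genes with enough UMIs 0 passed in both libraries. Of 11 FGF receptor signalling genes and 4 Notch genes 0 passed in either direction.

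Surface and signalling genes completed the group named as higher. Tnfrsf12a, the receptor of the cytokine TWEAK, was 2.53 (1.85 to 3.49) and 2.41 (1.86 to 3.14) times the comparison level. Ly6a, a GPI-anchored surface protein known as Sca-1, was 2.45 (1.53 to 4.003) and 2.64 (1.58 to 4.54) times, and S100a14 2.77 and 2.51 times. The chloride channel Ano1 was 2.63 and 2.18 times and the potassium channel Kcnk2 2.11 and 2.32 times.

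Some cell cycle genes were higher in the members, which the rule had limited to fewer than 3 UMIs of Mki67 and Top2a. Lockd, a long noncoding RNA next to Cdkn1b, was 8.43 (3.29 to 27.6) times in Control and 4.74 (2.47 to 9.84) times in NAPH, with 35 and 46 member UMIs from 14 and 19 cells. Spc24, a kinetochore protein, was 2.23 and 3.45 times. Of 10 S phase genes, 3 were higher and 0 lower, against 2.16% and 0.802% of all genes at that filter, Mcm2, Mcm4 and Mcm5 of the replicative helicase. Of 3 G2 and M phase genes with enough UMIs, 2 were higher, Cdc20 and Ccnb2, and the other 13 of the list had too few. Few cells carried them: 6 Control (2.04%) and 9 NAPH (4.29%) members held at least 3 UMIs of the G2 and M list with Mki67 and Top2a, against 3 and 3 comparison cells. Without cells with at least 2 such UMIs, the transitional count stayed at 11 of 14.

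Few stress and immune response genes passed in both libraries, against 2.16% higher and 0.802% lower among all genes. Of 18 immediate early genes 1 was higher in both libraries, Cyr61, while Fos was 1.20 and 0.993 times and Jun 1.18 and 1.25 times. Of 11 heat shock genes 1 was lower, Hspa1a, and Cryab was 1.40 and 1.78 times. Of 9 interferon response genes 1 was higher, Isg15 at 2.29 and 2.25 times, and the list medians were 0.41 and 0.50. None of 12 MHC class I genes, 6 MHC class II genes, 7 inflammatory mediators or 13 p53 targets passed in both libraries. Nor did any of 16 glycolysis and hypoxia genes or 16 respiratory chain genes, and of 17 unfolded protein response genes 1 was higher. MHC class I medians were 0.26 and 0.44, with 10 of 12 genes above 1 in both libraries. All 6 class II genes lay above 1, Cd74 at 1.21 times in both.

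**Figure D4:**
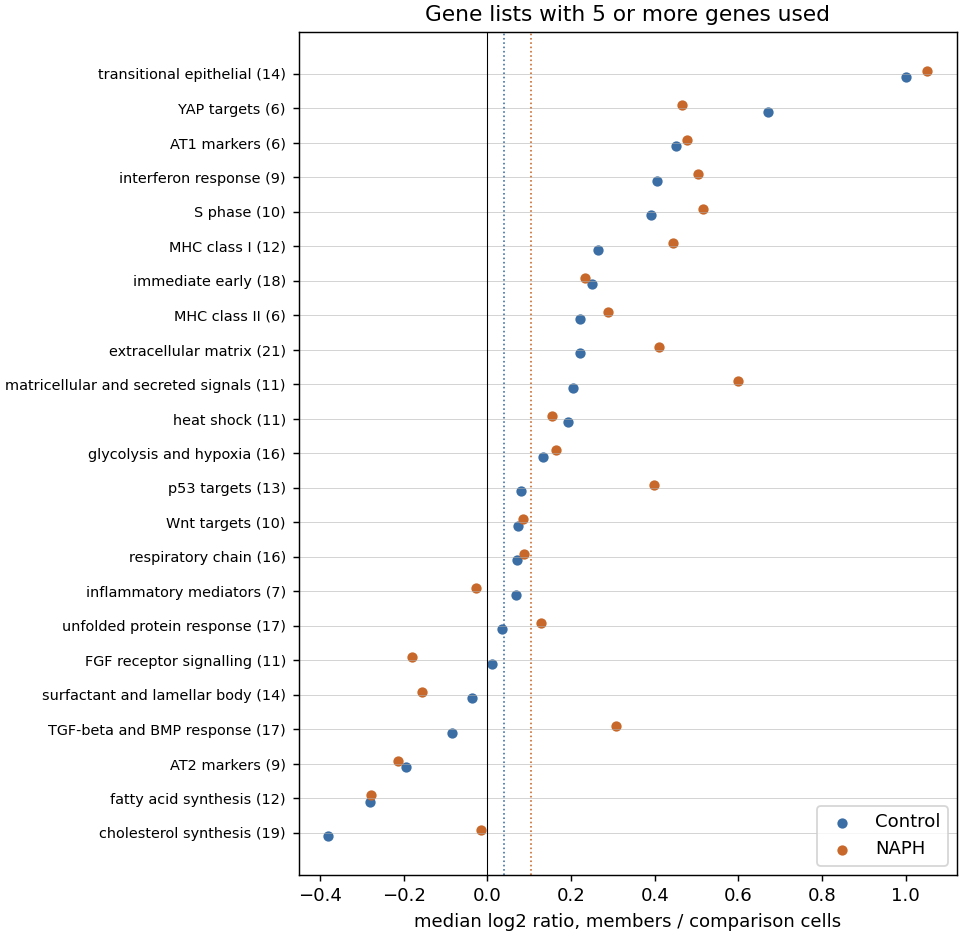
Median log2 ratio of members over comparison cells (x axis) for each gene list with at least 5 genes used (y axis, number used in brackets), Control in blue and NAPH in orange; dotted lines mark the median of all genes. The transitional list lies farthest to the right at 1.001 and 1.05, and fatty acid synthesis lies at -0.28 in both libraries.

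Markers of mesenchymal, endothelial, platelet and basal cells were low in the members. The 6 fibroblast markers together held 1 UMI in Control members and 1 in NAPH members, with Col3a1, Pdgfra and Lum at 0 in all gate-passing cells, and smooth muscle markers held 1 and 0. Mesothelial markers held 0 and 4 UMIs, and of the basal markers Krt5 and Krt14 were at 0. Endothelial markers held 48 and 43 UMIs in members and 52 and 66 in comparison cells, mostly Egfl7, with Cdh5 and Tie1 at 0. Platelet markers held 40 and 33 against 34 and 33, mostly Pf4. Club cell markers, which include the abundant secreted protein Scgb1a1, were the exception, with 30851 and 6392 UMIs in members and 41198 and 9575 in comparison cells. Defining fibroblast and smooth muscle genes were thus at or near 0 in cells that carried Sparc, a gene that mesenchymal cells also express.

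Immune RNA was concentrated in a few cells. The 4 immune markers held 66 UMIs in Control and 134 in NAPH members, and 176 and 29 in comparison cells. Of these, 51 of 66 came from 2 Control members, 118 of 134 from 5 NAPH members and 156 of 176 from 6 Control comparison cells, each with at least 10 immune UMIs. Lsp1, a leukocyte actin-binding protein, had 59 of its 72 UMIs in NAPH members and 38 of its 54 in Control comparison cells in those cells. Removal of the cells with the highest doublet scores took 4 members from each library and left 10 of the 14 transitional genes higher.

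Of all barcodes with at least 3 Ndnf and Sparc UMIs, 617 of 635 in Control and 876 of 986 in NAPH were Sftpc-rich. Sftpc-rich barcodes made up 56.2% of the whole Control library and 70.6% of the NAPH library. Sftpc-rich cells left out by the Areg and Sprr1a gate, 25 in Control and 154 in NAPH, had 450.1 and 289 CPM of Sparc and 192 and 159 CPM of Ndnf. Of them 18 (72.0%, 50.6 to 87.9) and 85 (55.2%, 47.0 to 63.2) held at least 3 UMIs of the pair. Those left out by the Bex2 gate alone had 203 and 169.7 CPM of Sparc, and 28.0% and 27.8% held at least 3 UMIs. Sparc stood at 148 and 169 CPM in those left out by the Lrg1 gate, whatever their Bex2 level. Of these, 16.9% and 29.9% held at least 3. Among Sftpc-poor barcodes, 8 of 769 (1.04%) Scgb1a1-rich ones in Control and 42 of 187 (22.5%) in NAPH held at least 3. So did 9 of 23 and 63 of 183 that fell in no class. The Scgb1a1-rich barcodes were deeper, with medians of 29449 and 22537 UMIs against 8141 and 9334 in members. After thinning to equal depth, 0% and 0.535% of them held at least 3, against 31.6% and 28.1% of members. Any UMI of the pair was then held by 1.56% and 18.7% of them, against 89.8% and 87.6% of members. Krt8 stood at 895 and 1028 CPM in the cells left out by Areg and Sprr1a, against 301 and 362 CPM in members.

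Cells that should lack these genes set the background. Barcodes with less Sftpc and high ciliary genes, 192 and 207 in number, had 3.21 and 10.1 CPM of Sparc, and 0 of 192 (up to 1.56% allowed by a count of 0) and 0.966% held at least 3 UMIs. Barcodes with less Sftpc and immune markers had 9.12 and 25.3 CPM of Sparc, and 0.216% and 0.592% held at least 3. Median depths were 5336 and 7934 UMIs for the Control ciliary and immune barcodes, against 8141 for Control members. At 3500 UMIs per cell, 0.521% and 2.81% of these Control barcodes held a Sparc UMI, against 84.0% of members and 29.7% of comparison cells. Comparison cells thus held Sparc well above the level of these barcodes. S100a6 was also high outside AT2 cells, at 785 and 6981 CPM in the ciliary barcodes.

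**Figure D5:**
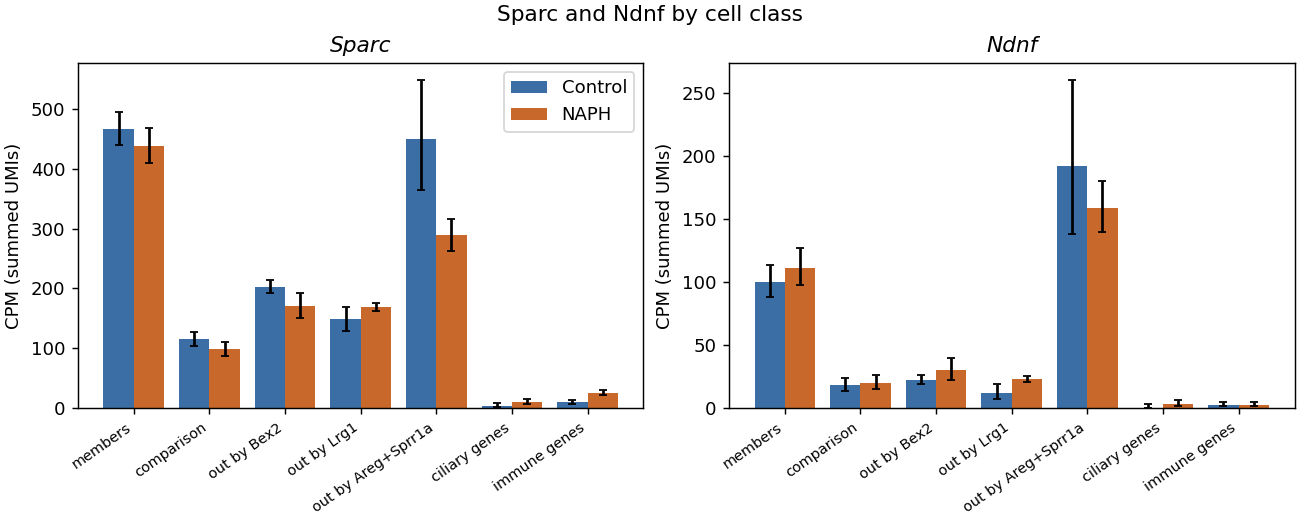
Sparc (left) and Ndnf (right) in CPM of summed UMIs (y axes) for members, comparison cells, Sftpc-rich cells left out by a gate, and Sftpc-poor barcodes with ciliary or immune genes (x axes), Control in blue and NAPH in orange, with exact Poisson 95% intervals. Sparc reaches 467 and 438 CPM in members and 450.1 and 289 CPM in cells left out by Areg and Sprr1a, and at most 25.3 CPM in ciliary and immune barcodes.

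Between the libraries members differed in many genes, and part of these passed the same bound in comparison cells. Of 6341 genes with enough UMIs, 669 were at least 1.5 times higher in NAPH than in Control members (10.6%) and 201 lower (3.17%). Of these, 200 and 53 passed 1.5 in the same direction in comparison cells. The share of all 6341 genes past 1.5 in comparison cells was not set beside these counts, so the overlap is a description only. The median gene was 0.13 higher in NAPH on the log2 scale, and with median-of-ratios scaling 386 were higher and 387 lower, so the excess of higher genes depends on the scaling. Ratios below are given relative to that median of all genes. Injury, animal and library cannot be told apart here.

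Retnla was 17.4 times (13.2 to 23.4) higher in NAPH members and 31.7 times (26.0 to 39.0) in comparison cells, and was found in 143 of 210 NAPH and 31 of 294 Control members. The comparison value includes the single cell, given above, that held many of the Retnla UMIs in NAPH comparison cells. Mfsd2a, a transporter of lysophosphatidylcholine, was 12.8 times (4.67 to 48.8) higher, with 4 Control and 47 NAPH UMIs. Igkc, an immunoglobulin light chain constant region, had 0 UMIs in Control members and 35 in NAPH members. With Control set to a floor of 3 counts it was 12.7-fold higher, and the lower limit of its interval was 9.77. In comparison cells it had 2 and 51. Itga6, the laminin-binding integrin alpha 6, was 5.73 times (2.98 to 12.1) higher in members and 2.96 times in comparison cells. Cxcl1, a neutrophil chemokine, was 5.79 times higher, but 2 NAPH members held 23 and 20 of its 48 UMIs. Fxyd4, Daam2, Malt1 and Itm2a lay between 4.66 and 5.84 times.

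Lower in NAPH members were Pon1, a paraoxonase, at 0.0915 times (0.0384 to 0.188), and Bex1 at 0.238 times (0.141 to 0.384), and both were lower in comparison cells too, at 0.165 and 0.281 times. Col23a1, a transmembrane collagen, was 0.244 times (0.104 to 0.512) in members and 0.926 times (0.493 to 1.72) in comparison cells, and Cyp4b1, a cytochrome P450, 0.332 and 0.964 times, a difference between the classes that was not tested. Cthrc1, Myh13, Ppp1r1a, Slc15a1, Fmo2 and Csnk1g1 lay between 0.279 and 0.326 times.

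Of the 15 genes named as higher in members, 4 were also at least 1.5 times higher in NAPH than in Control members by CPM and 1 was lower, where 10.6% and 3.17% of all genes were. These were Thbs1 (2.04 times), Anxa1 (1.79 times), Tnfrsf12a (1.62 times) and Lockd (1.56 times, 0.985 to 2.498), with S100a6 the lower one. On the CPM scale S100a6 was 0.635 times (0.580 to 0.695) as high in NAPH as in Control members, Lgals3 1.03 times (0.923 to 1.15), and Krt19 1.15 times (0.939 to 1.40). Of 14 transitional genes 5 were higher and 1, S100a6, lower in NAPH members, where 12.8% and 4.7% of the 8723 genes at the list filter were. Of 19 cholesterol synthesis genes 12 were higher and 0 lower in NAPH members, Pmvk at 4.58 times and Sqle at 3.26 times by CPM, with a list median of 0.53 above that of all genes, against 0.24 in comparison cells. Scd1 was 3.20 times higher by CPM, and 3.16 times in comparison cells. Ager was 1.38 times higher by CPM in NAPH members, and Id1 and Id3, targets of BMP signalling, were 4.63 and 4.67 times higher from 19 and 15 Control UMIs.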

How the data were processed

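The authors deposited 1 gene count matrix per library, in which each value is the number of UMIs (whole-number counts) of a gene in a barcode. Per the submitters' processing notes Cell Ranger and the mm10 build were used, with no version stated. There were 3298 barcodes and 41699755 UMIs in Control, and 3685 barcodes and 38497783 UMIs in NAPH, over 28692 genes. Median depth was 8303.5 and 9417 UMIs per barcode, and no further filter on barcodes was applied.

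Counts were summed over cells, divided by the class total and expressed as CPM. Ratios carry exact conditional Poisson 95% intervals and shares exact Clopper-Pearson 95% intervals. These cover counting error only: cells are not replicates, 1 library per group allows no test, and n is 1 library throughout. The main filter was 30 UMIs, observed or expected, in both libraries, with 10 UMIs for gene lists. Thinning drew 3500 UMIs per cell without replacement, and 0 cells were shallower. Doublets were scored with Scrublet in scanpy 1.11.5 and removed only in an alternative. The analysis ran in Python 3.11.15 with numpy 2.4.6, pandas 2.3.3 and scipy 1.17.1, and was tested on simulated data.

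The members and the 36 gene lists were chosen with earlier results of these data known. Genes were named by rank: the 15 highest and 15 lowest ratios in the library where each differed least, and the 10 highest and 10 lowest for NAPH over Control. Passed over were haemoglobin, mitochondrial and ribosomal genes, those linked to sex, and predicted genes without a name, and up to 4 genes were named per list. Some further list genes were named after their values were seen. The 58 symbols listed more than once were not ranked. Gene positions are from GENCODE for GRCm38 and windows before start sites from RefSeq for GRCm38.p6. Other settings were tried in 18 ways, of which 2 were chosen after seeing the data.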

Additional observations from a re-analysis of the deposited data

Results flagged for a closer look

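Lsp1, a leukocyte actin-binding protein, went in opposite directions in the 2 classes of cells. It had 9 UMIs in Control members and 72 in NAPH members, 9.51 times higher by CPM (4.74 to 21.6), and 54 and 17 in comparison cells, 0.364 times (0.198 to 0.638). The difference between the classes was not tested. Cells with at least 10 UMIs of the immune markers held 4 of the 9, 59 of the 72, 38 of the 54 and 0 of the 17 UMIs. Without cells that carried markers of other classes, the log2 difference in members was 1.63 in place of 3.25.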

How the results depend on the processing

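No paired analysis was possible because each group is 1 library. The member share of gate-passing cells was 13.5% in Control and 11.4% in NAPH at 3500 UMIs per cell, 61.2% and 58.6% with 2 UMIs as the minimum, 17.2% and 17.99% with 5, and 33.1% and 33.5% without the Lrg1, Areg with Sprr1a and Bex2 gates. It was 33.4% in NAPH among cells with 0 UMIs of Areg and Sprr1a. The NAPH over Control ratio of that share moved by less than its interval in the alternatives run.

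The number of genes higher in members was 41 at 3500 UMIs per cell, 153 against cells with 0 Ndnf and Sparc UMIs, 188 and 509 with filters of 10 and 1 UMIs, 15 at 2-fold, and 20 among cells with 0 Areg and Sprr1a UMIs, where 7 transitional genes were higher. The number lower was 6 at 3500 UMIs per cell, 19 and 18 with 2 and 5 UMIs as the minimum, and 7 with a minimum of 3 per 10000. It was 52 against cells with 0 Ndnf and Sparc UMIs, 25 against all other Sftpc-rich cells, 26 with median-of-ratios scaling, 70 and 373 with filters of 10 and 1 UMIs, 0 at 2-fold, and 7 with Areg and Sprr1a at 0. Filters on fewer UMIs test more genes, and thinning leaves fewer.

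For NAPH over Control in members, the numbers higher and lower were 1061 and 526 without the Lrg1, Areg with Sprr1a and Bex2 gates, 386 and 387 with median-of-ratios scaling, 1400 and 634 and then 3100 and 1915 with filters of 10 and 1 UMIs, and 151 and 33 at 2-fold.

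Of single genes, the smaller log2 difference of Retnla became 1.23 with a minimum of 2 UMIs, 0.25 without the 3 gates and 0.37 against cells with 0 Ndnf and Sparc UMIs. Klc1 became 0.0565 with a minimum of 5 UMIs, and Thbs1 -0.0562 with Areg and Sprr1a at 0. Cxcl1, NAPH over Control, became -0.47 with a minimum of 5 UMIs and -0.28 with Areg and Sprr1a at 0. For the genes named as higher, 263 values kept their side of 1.5-fold, 6 did not and 1 reversed, and for those named as lower these numbers were 174, 92 and 4. Except where stated, the cause was not tested.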
